A study of Homo sapiens with 12 samples.

Results

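The genes described here are the solute carriers (SLC proteins) other than the mitochondrial SLC25 family and other than 10 amino acid transporters known from the integrated stress response. Members are the gene symbols that carry the SLC family pattern with subfamily letter A and are listed in both tables of expression values, with those exclusions applied. This gave 158 members of 12421 symbols present in both tables; 128 further symbols of the same pattern are listed only in the table of the first experiment. Of the 158, 5 are named after a carrier without being one (SLC2A4RG, SLC4A1AP, SLC7A6OS and the scaffold proteins SLC9A3R1 and SLC9A3R2), and SLC24A6 and SLC30A9 are known as mitochondrial proteins in spite of their family names. The letter pattern leaves out SLC35 subfamilies B to G, which are given below as a separate list.

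RNA was sequenced from the ribosome-bound part of sucrose gradients of HEK293 cells, an established human embryonic kidney line. In a first experiment, 2 libraries came from cells given a plasmid for STING and 2 from cells given the vector. In a second experiment, the knockout experiment, there were 2 libraries each of PERK knockout cells with STING, PERK knockout cells with vector, wild-type cells with STING and wild-type cells with vector. All 12 libraries come from cells harvested 24 h after transfection with 5 ug of plasmid, and cycloheximide was given before lysis in every group. The labels do not say whether the knockout cells are 1 clone or a pool, nor whether replicates are separate cultures, so the p-values measure the spread between libraries, which may be technical. Total RNA was not analysed here, so a change in the amount of a carrier's mRNA and a change in the share of it on ribosomes cannot be told apart.

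Solute carriers are membrane proteins that move small molecules down or against gradients, often with sodium, protons or an exchanged solute. They are made on ribosomes at the endoplasmic reticulum (ER) and sorted from there to the plasma membrane, Golgi, lysosome or vesicles. STING is an ER membrane protein of the innate immune response to cytosolic DNA, and PERK is an ER kinase that slows general translation by phosphorylating the initiation factor eIF2alpha.

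TMEM173, the gene of STING, was at 65157 and 69253 FPKM (fragments per kilobase of transcript, scaled to library size) in the STING libraries of the first experiment, against 14.9 and 13.8 FPKM in the vector libraries. In the knockout experiment TMEM173 was at 10512 and 7338 FPKM in PERK knockout cells with STING, against 23.5 and 43.8 FPKM with vector, and at 41812 and 40660 FPKM in wild-type cells with STING, against 23.1 and 36.7 FPKM with vector. TMEM173 was thus lower in the knockout STING libraries than in the wild-type STING libraries, which stands beside the comparison of genotypes with STING and the interaction below. EIF2AK3, the gene of PERK, was at or near the lowest listed value of 1 FPKM in all 8 libraries of the knockout experiment, so its level could not check the genotype. FPKM values are relative to each library's total, of which TMEM173 takes a part, and its part in the changes was not tested. Fibroblast markers summed to less than 0.5 FPKM in every library of the first experiment, and 4 of 10 haematopoietic and 4 of 8 hepatocyte markers were listed at 0 in all of its libraries. The HEK293-expressed markers (VIM, KRT8, KRT18, NEFM, INA and NES) summed to 153.8 to 154.2 FPKM in its STING libraries and to 111 to 127 FPKM in its vector libraries. VIM and KRT18 made up most of these sums. NEFM was listed at 0 in all of its libraries, and NES at 0 except in the second vector library (0.118 FPKM). VIM was at 75.0 and 75.1 FPKM with STING, against 47.5 and 44.9 FPKM with vector. KRT8 lay the other way, at 8.34 and 8.66 FPKM with STING, against 13.9 and 8.79 FPKM with vector.

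In the first experiment carriers of several substrate classes were lower with STING and none was called higher. Of the 158 members 101 had a mean of at least 1 FPKM and were tested, with limma on log2(FPKM + 1) and an adjusted p under 0.05 over all 9464 genes tested. There were 14 members lower, 13.9% of those tested, where 9.29% of all genes were called lower. No member was called higher, where 2.51% of all genes were called higher. At an unadjusted limma p under 0.05, 6 members were higher and 28 lower, 33.7% of those tested. In either direction 2623 of all 9464 genes had such a p. The median log2 change was -0.28 over the 101 members and -0.05 over all genes, and 69 of the 101 members (68.3%) and 54.0% of all genes were below 0. The counts of single classes and lists below stand beside these shares of all genes. Both STING libraries lay below both vector libraries for 51 members (50.5%, against 32.8% of all genes) and above them for 14 (13.9%, against 24.2% of all genes). The 57 members not tested had means of up to 0.975 FPKM, and SLC23A3 was listed at 0 in all 4 libraries.

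**Figure D1:**
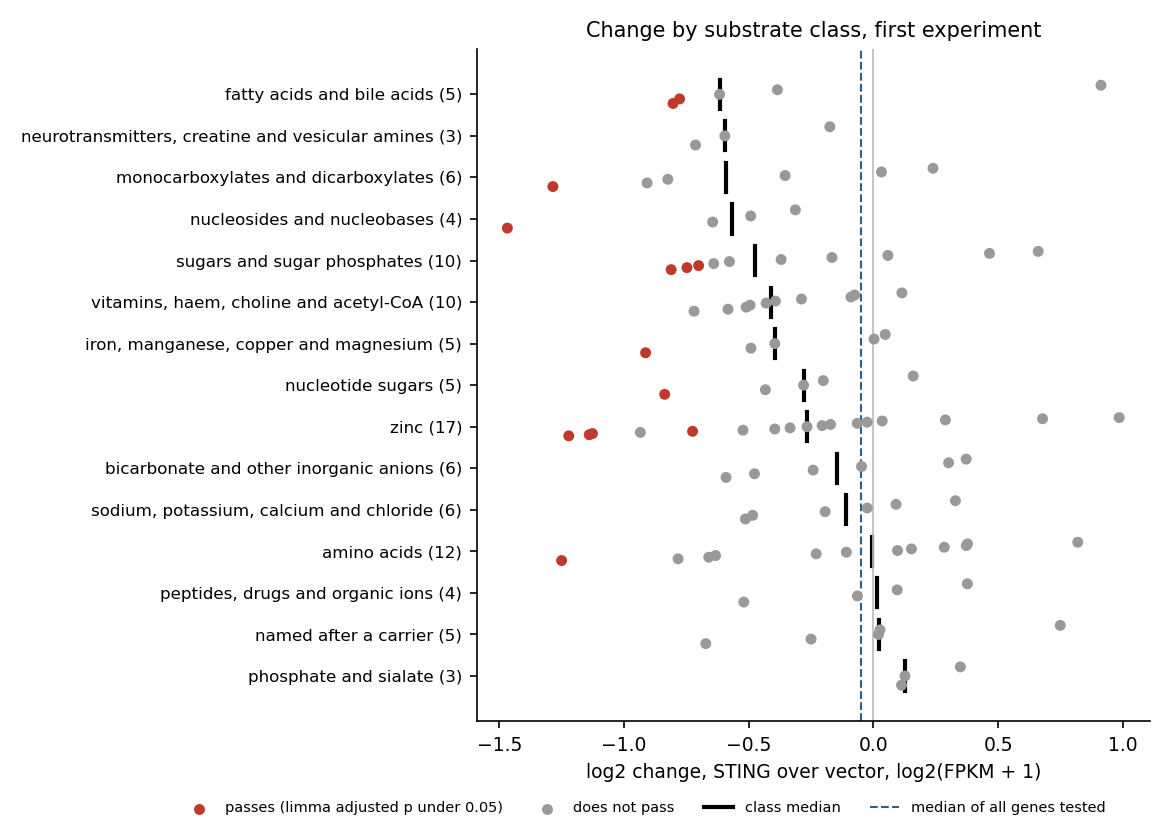
Log2 change of each tested member in the first experiment, STING over vector on log2(FPKM + 1), grouped by substrate class with the number tested in brackets; red points pass (limma adjusted p under 0.05), black bars are class medians and the dashed line is the median of all genes. The 14 members that pass are all left of 0 and fall in 8 of the classes, and the class medians run from -0.62 for fatty acid and bile acid carriers to 0.13 for phosphate and sialate carriers.

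Zinc carriers held 4 of the 14. SLC39 proteins (ZIP family) bring zinc into the cytosol and SLC30 proteins (ZnT family) move it out, into vesicles or the medium. Of 17 tested zinc carriers, 4 fell (23.5%, where 9.29% of all genes did) and 13 were below 0 (76.5%, against 54.0% of all genes), with a median log2 change of -0.27. Summed over both families, zinc carriers stood at 372 and 426 FPKM in STING libraries, against 595 and 707 FPKM in vector libraries. The most abundant carriers weigh most in this sum. SLC39A3, a plasma membrane importer and the most abundant member of all in the first experiment, was at 116 and 149 FPKM with STING, against 259.7 and 319 FPKM with vector. Its log2 change was -1.13 ± 0.16 (SE, n = 2 libraries each, limma adjusted p = 0.00545), and the groups did not overlap. SLC39A4, the intestinal zinc importer mutated in acrodermatitis enteropathica, was at 29.2 and 38.3 FPKM with STING, against 78.5 and 80.1 FPKM with vector (-1.22 ± 0.17, adjusted p = 0.00487). SLC30A3, which loads synaptic vesicles with zinc in neurons, was at 2.81 and 3.25 FPKM with STING, against 6.36 and 9.68 FPKM with vector (-1.14 ± 0.26, adjusted p = 0.0279). SLC39A13, which releases zinc from the early secretory pathway and is mutated in a form of Ehlers-Danlos syndrome, was at 26.3 and 28.9 FPKM with STING, against 42.2 and 50.6 FPKM with vector (-0.73 ± 0.17, adjusted p = 0.0291). Each of the 4 was lower in both STING libraries than in either vector library.

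The other zinc carriers did not move as one. SLC39A1, the second most abundant ZIP, was at 81.9 and 88.0 FPKM with STING, against 79.9 and 98.9 FPKM with vector, and its groups overlapped. SLC30A1, the plasma membrane zinc exporter, was at 2.28 and 2.14 FPKM with STING, against 0.946 and 0.348 FPKM with vector. Its change of 0.99 ± 0.29 was the largest above 0 of any member and did not pass (adjusted p = 0.0674). SLC39A14, an importer of zinc, iron and manganese, was also higher in both STING libraries (3.42 and 3.81 FPKM, against 1.41 and 2.45 FPKM with vector; 0.68 ± 0.27, adjusted p = 0.148).

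The metallothioneins MT2A and MT1X, small proteins that bind cytosolic zinc and copper, fell in the same libraries. Of 12 listed genes on the list of metallothioneins and their regulator MTF1, 3 were tested and 2 fell. MT2A was at 94.7 and 60.1 FPKM with STING, against 223 and 209.7 FPKM with vector (-1.51 ± 0.21, limma adjusted p = 0.00885). MT1X was at 148 and 124 FPKM with STING, against 273 and 233 FPKM with vector (-0.89 ± 0.14, adjusted p = 0.00632). In wild-type cells of the knockout experiment the groups overlapped for both genes. MT2A was there at 298 and 318 FPKM with STING, against 377 and 311 FPKM with vector. MT1X was there at 349 and 291 FPKM with STING, against 397 and 339 FPKM with vector.

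The promoters of 3 zinc carriers are printed because metallothioneins and SLC30A1 are textbook targets of the zinc-sensing factor MTF1, which binds metal response elements. The core letters searched were TGCACNC and TGCGCNC, on both strands, in the 250 bases before each RefSeq transcript start (GRCh38.p14). Each sequence is on the gene's own strand, the minus strand in all 3, and capitals mark the core in the orientation found.
SLC39A3 (chr19:2740077-2740326): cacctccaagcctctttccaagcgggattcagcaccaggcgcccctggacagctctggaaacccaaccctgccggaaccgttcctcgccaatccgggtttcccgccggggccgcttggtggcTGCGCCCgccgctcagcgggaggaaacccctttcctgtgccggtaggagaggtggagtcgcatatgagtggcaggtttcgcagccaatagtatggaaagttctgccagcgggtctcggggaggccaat
SLC30A3 (chr2:27275347-27275596): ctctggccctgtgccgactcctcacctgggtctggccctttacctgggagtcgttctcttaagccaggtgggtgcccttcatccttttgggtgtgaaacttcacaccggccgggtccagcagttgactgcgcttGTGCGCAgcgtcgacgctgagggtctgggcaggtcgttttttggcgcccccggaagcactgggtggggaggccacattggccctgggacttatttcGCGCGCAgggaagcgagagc
SLC30A1 (chr1:211579162-211579411): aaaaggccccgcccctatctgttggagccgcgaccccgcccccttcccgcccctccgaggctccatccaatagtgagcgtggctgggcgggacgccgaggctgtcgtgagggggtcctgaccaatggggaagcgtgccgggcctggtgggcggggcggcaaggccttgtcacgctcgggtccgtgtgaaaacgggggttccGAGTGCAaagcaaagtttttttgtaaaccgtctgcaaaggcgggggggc
The core stands once before SLC39A3 and SLC30A1 and 2 times before SLC30A3. These 3 were shown because they hold it, and SLC39A13, which also fell, holds none. No promoter of SLC39A4, which fell too, was available to search. The core is common: 24.7% of all 27305 promoters hold it, as do 36 of the 126 members with a promoter in the table (28.6%) and 6 of 16 zinc carriers (37.5%). The bases that follow the RefSeq start were found in a GENCODE transcript of SLC39A3, and not in one of SLC30A3 or SLC30A1, so the position of those starts is less sure. A match is a run of letters and not a measured binding site.

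**Figure D2:**
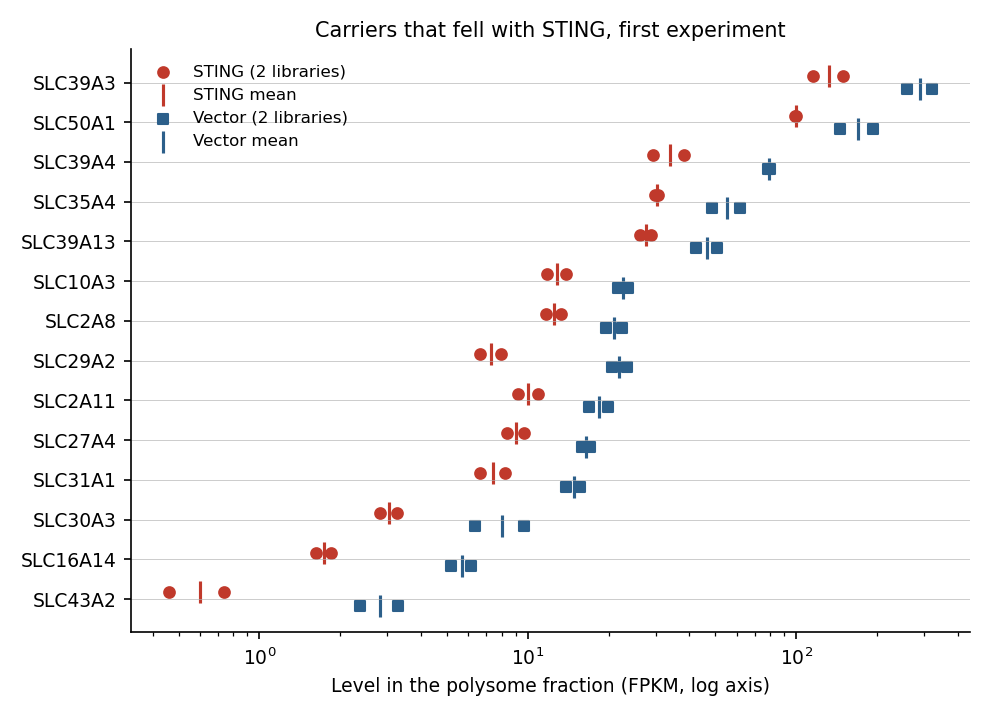
Level of the 14 members that fell in the first experiment, in FPKM on a log axis, with STING libraries as red circles and vector libraries as blue squares (2 each) and a vertical tick at each group mean. In every row both STING libraries lie left of both vector libraries, from SLC39A3 at 116 and 149 FPKM with STING to SLC43A2 at 0.739 and 0.462 FPKM with STING.

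Nucleoside carriers gave the single largest change. SLC29A2 (ENT2), an equilibrative carrier of nucleosides and nucleobases, was at 6.64 and 7.97 FPKM with STING, against 20.5 and 23.3 FPKM with vector. It fell by 1.47 ± 0.19 on the log2 scale (limma adjusted p = 0.00452). The other 3 tested carriers of this class were lower in both STING libraries and did not pass: SLC29A1 (ENT1), the plasma membrane relative of SLC29A2, changed by -0.31 ± 0.16, the lysosomal SLC29A3 by -0.64 ± 0.20 and the monoamine carrier SLC29A4 by -0.49 ± 0.24. The class median was -0.57.

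Sugar carriers split within the GLUT (SLC2) family. Of 10 tested members of the class, 3 fell, where 9.29% of all genes did, and 7 were below 0, against 54.0% of all genes, with a median log2 change of -0.47. SLC2A11, a GLUT of hexoses, was at 10.9 and 9.22 FPKM with STING, against 16.9 and 20.0 FPKM with vector (-0.81 ± 0.20, limma adjusted p = 0.0346). SLC2A8, a GLUT held on intracellular membranes, was at 11.7 and 13.3 FPKM with STING, against 19.6 and 22.4 FPKM with vector (-0.70 ± 0.18, adjusted p = 0.0474). SLC50A1, the human member of the SWEET sugar carriers, was at 99.7 and 99.2 FPKM with STING, against 145 and 194 FPKM with vector (-0.75 ± 0.15, adjusted p = 0.0196). All 3 had groups that did not overlap. SLC2A1 (GLUT1), the main glucose importer of growing cells, stood higher in both STING libraries at 19.0 and 19.1 FPKM, against 11.8 and 15.5 FPKM with vector, and did not pass (0.47 ± 0.20, adjusted p = 0.171). TXNIP, an arrestin-like protein that restrains glucose uptake through GLUT1, fell by 1.22 ± 0.25 (adjusted p = 0.0207), the only one of 10 tested subunits and partners of carriers to pass. SLC37A3, an ER and lysosomal family member, was higher without passing (0.66 ± 0.26, adjusted p = 0.145).

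Lipid, metal and carboxylate carriers each held at least 1 member that fell, where 9.29% of all genes did. Of tested fatty acid and bile acid carriers 2 of 5 fell, with a class median of -0.62. Of iron, manganese, copper and magnesium carriers 1 of 5 fell (median -0.40), and of monocarboxylate and dicarboxylate carriers 1 of 6 (median -0.59). SLC27A4 (FATP4), which takes up and activates long-chain fatty acids, was at 8.39 and 9.72 FPKM with STING, against 17.1 and 15.9 FPKM with vector (-0.80 ± 0.19, limma adjusted p = 0.032). SLC10A3, an orphan of the bile acid family, was at 11.8 and 13.9 FPKM with STING, against 21.8 and 23.6 FPKM with vector (-0.78 ± 0.18, adjusted p = 0.0318). Their relative SLC27A3 went the other way without passing, at 1.34 and 3.36 FPKM with STING, against 0.259 and 1.28 FPKM with vector. SLC31A1 (CTR1), the high-affinity copper importer, was at 8.20 and 6.64 FPKM with STING, against 15.7 and 13.9 FPKM with vector (-0.91 ± 0.20, adjusted p = 0.0263). SLC41A3, a magnesium carrier and the most abundant of the iron, manganese, copper and magnesium class, was at 22.4 and 20.2 FPKM with STING, against 20.5 and 22.02 FPKM with vector. SLC16A14, a member of the monocarboxylate carrier family, was at 1.62 and 1.85 FPKM with STING, against 5.18 and 6.17 FPKM with vector (-1.29 ± 0.24, adjusted p = 0.0133). SLC16A1 (MCT1), the lactate and pyruvate carrier, did not pass at 19.6 and 18.5 FPKM with STING, against 13.8 and 18.5 FPKM with vector.

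Amino acid carriers outside the stress response were centred on 0, with a median log2 change of -0.01 over 12 tested. SLC43A2 (LAT4), which exports branched-chain amino acids, phenylalanine and methionine, was the one that fell, at 0.739 and 0.462 FPKM with STING, against 3.27 and 2.37 FPKM with vector (-1.25 ± 0.27, limma adjusted p = 0.0244). SLC38A9, the lysosomal arginine sensor of the mTORC1 pathway, was higher in both STING libraries at 4.31 and 5.69 FPKM, against 1.96 and 2.84 FPKM with vector, and did not pass (0.82 ± 0.26, adjusted p = 0.0823). SLC7A6 (y+LAT2), the most abundant of the class, had groups that overlapped (-0.11 ± 0.21); it shares reads with the overlapping gene SLC7A6OS where strand is not kept. For comparison, 2 of 9 tested amino acid transporters of the stress response rose and none fell, and 1 of 36 tested SLC25 carriers rose and 3 fell; the difference between these sets was not tested.

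Nucleotide sugar carriers supply the Golgi and ER with donors for glycosylation. Of 5 tested SLC35A members, 1 fell: SLC35A4 was at 29.7 and 30.7 FPKM with STING, against 48.6 and 61.6 FPKM with vector (-0.84 ± 0.17, limma adjusted p = 0.018). SLC35A4 is known for an upstream open reading frame in its transcript and for translation that resists eIF2alpha phosphorylation, and its locus overlaps a protein-coding RefSeq gene on that transcript. SLC35A2, the UDP-galactose carrier, overlapped between groups at 13.1 and 23.9 FPKM with STING, against 21.8 and 21.6 FPKM with vector. Among SLC35 subfamilies B to G, outside the members, 6 of 18 tested carriers fell, where 9.29% of all genes did, and 1 rose, where 2.51% did. SLC35B1, which exchanges ATP for ADP across the ER membrane, was at 49.9 and 46.0 FPKM with STING, against 105 and 109 FPKM with vector (-1.15 ± 0.13, adjusted p = 0.00284), and SLC35C2 fell by 1.38 ± 0.19 (adjusted p = 0.00524). SLC35B2, SLC35B4, SLC35G1 and SLC35F6, listed under its older symbol C2orf18, also fell. SLC35G2, listed as TMEM22, was the one that rose, at 18.01 and 16.6 FPKM with STING, against 9.91 and 10.7 FPKM with vector (0.69 ± 0.18, adjusted p = 0.0478). Of 19 tested nucleotide sugar synthesis enzymes, NANS, which makes sialic acid phosphate, rose by 0.70 ± 0.15 (adjusted p = 0.0214) and PMM1, a phosphomannomutase, fell by 0.51 ± 0.12 (adjusted p = 0.0344).

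By location, 3 of 16 tested ER and Golgi carriers fell and none rose, and 14 of the 16 were below 0 with a median of -0.39, where 9.29% of all genes fell, 54.0% were below 0 and their median was -0.05. Of 6 tested lysosomal carriers none passed in limma, and 3 were below 0. These lists overlap the substrate classes.

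The remaining classes held no member that passed. Of 10 tested carriers of vitamins, haem, choline and acetyl-CoA, 9 were below 0, against 54.0% of all genes, with a median of -0.41. The lowest of them was SLC48A1 (HRG1), the haem carrier, at 6.05 and 5.02 FPKM with STING, against 8.39 and 11.3 FPKM with vector (-0.72 ± 0.23, limma adjusted p = 0.0842). SLC19A1, the reduced folate carrier and an importer of the cyclic dinucleotides that activate STING, had a change of -0.29 ± 0.20, at 13.2 and 16.0 FPKM with STING, against 16.0 and 20.2 FPKM with vector. The 3 neurotransmitter and creatine carriers were below 0, with SLC6A6, the taurine carrier, at -0.71 ± 0.28. The 3 phosphate and sialate carriers, SLC20A1, SLC20A2 and SLC17A5, were above 0, between 0.11 and 0.35. Bicarbonate carriers had a median of -0.14 with SLC4A2 (AE2), their most abundant member, at -0.05 ± 0.24 (0.01 with median-of-ratios scaling) and SLC4A11 at -0.59 ± 0.32. Sodium, potassium, calcium and chloride carriers had a median of -0.11, with SLC12A4 (KCC1), the potassium and chloride carrier, at 0.33 ± 0.22 and SLC24A6 at -0.51 ± 0.29. Peptide, drug and organic ion carriers had a median of 0.02 over 4 tested. Among the 5 genes named after a carrier, SLC9A3R2 was higher in both STING libraries without passing (0.75 ± 0.31, adjusted p = 0.158). The urea carrier SLC14A2 was too low to test, at up to 0.186 FPKM with STING and 0.160 FPKM with vector.

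Lists of other membrane transport genes each held genes that fell, where 9.29% of all genes did. Among 6 tested sodium pump subunits, FXYD5 fell by 0.93 ± 0.12 (limma adjusted p = 0.00364). Among 8 tested ABC transporters ABCB8, of the mitochondrial inner membrane, fell by 0.82 ± 0.18 (adjusted p = 0.0279). Of 10 tested subunits of the ER membrane protein complex, which inserts membrane proteins, 3 fell and 7 were below 0, with a median of -0.31. MMGT1 fell by 0.58 ± 0.15 (adjusted p = 0.043), EMC9 (listed as FAM158A) by 0.63 ± 0.14 (adjusted p = 0.0301) and EMC10 (listed as C19orf63) by 0.67 ± 0.17 (adjusted p = 0.0434).

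The calls of the first experiment rest on all 4 libraries. Without the first or the second STING library no member passed in limma, without the first vector library 9 passed and without the second 3 passed, all lower. With no intensity trend and no robust estimation none passed, and with no filter on the mean 4 passed. The change of each of the 10 lowest stayed below 0 without any 1 library, with SLC29A2 between -1.58 and -1.35 and SLC39A3 between -1.31 and -0.95.

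In wild-type cells of the knockout experiment no member passed. Of 156 tested members 0 passed in limma, where 0.00816% of 12254 genes did. An unadjusted p under 0.05 was found for 21 members (13.5%), all lower, and for 1570 of the 12254 genes in either direction. Most of the table moved down: 121 members were below 0 with a median of -0.28, and the median of all genes was -0.27. Median-of-ratios scaling moved the median of all genes to 0.05 and left 66 members below 0, so the values below are given beside that median. Both STING libraries lay below both vector libraries for 78 members (50.0%, against 52.3% of all genes) and above them for 0 (against 3.31% of all genes). The 2 untested members, SLC11A1 and SLC16A12, were at the lowest listed value in all 8 libraries.

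The ZIP importers lay below 0 as a family in wild-type cells. All 11 SLC39 members were below 0, where 80.1% of all genes were, and 10 of the 11 with median-of-ratios scaling or quantile normalization. In the values as deposited 10 had groups that did not overlap, where 52.3% of all genes lay below, and their median log2 change was -0.67. Relative to the median of all genes the family's median was -0.40 as deposited, -0.39 with median-of-ratios scaling and -0.32 with quantile normalization. SLC39A3 was at 57.0 and 51.5 FPKM with STING, against 95.7 and 106 FPKM with vector (-0.88 ± 0.38, limma adjusted p = 0.389). SLC39A1, which had overlapped in the first experiment, was at 50.0 and 43.9 FPKM with STING, against 67.0 and 76.9 FPKM with vector (-0.61 ± 0.38). SLC39A9, found in the Golgi, was at 19.8 and 16.5 FPKM with STING, against 28.6 and 34.6 FPKM with vector (-0.77 ± 0.26, adjusted p = 0.384). The 8 SLC30 members had a median of -0.20. In the first experiment the 2 families stood in the other order. There the median was -0.21 over the 11 SLC39 members and -0.30 over the 6 tested SLC30 members, where that of all genes was -0.05. SLC30A1 and SLC39A14, both above 0 in the first experiment, were at -0.11 ± 0.18 and -0.55 ± 0.50 in wild-type cells.

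**Figure D3:**
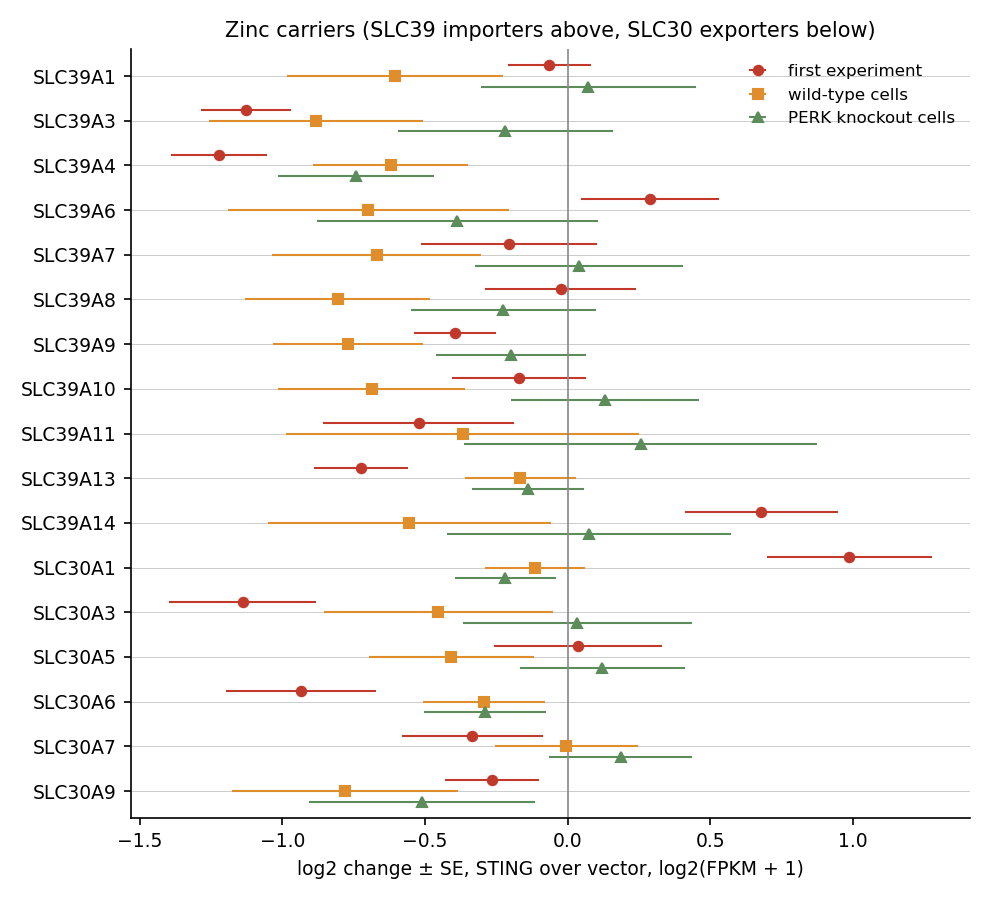
Log2 change ± SE of each zinc carrier with STING over vector, on log2(FPKM + 1), in the first experiment (circles), wild-type cells (squares) and PERK knockout cells (triangles), for the zinc carriers tested in all 3. The SLC39 squares all lie left of 0 with a median of -0.67 (10 of 11 do with median-of-ratios scaling), and the SLC39 triangles lie on both sides of 0 with a median of -0.14, or 0.04 with that scaling.

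The 14 members that fell in the first experiment were all below 0 in wild-type cells in the values as deposited, and 9 of 14 were with median-of-ratios scaling or quantile normalization. As deposited, 12 had groups that did not overlap, the median was -0.53, and 11 lay below the median of all genes. Of the 837 genes of any kind that fell in the first experiment and were tested here, 95.2% were below 0 and 75.7% had groups that did not overlap, with a median of -0.45. SLC43A2 had the smallest p of any member, at 2.28 and 1.68 FPKM with STING, against 4.96 and 5.39 FPKM with vector (-1.06 ± 0.25, limma adjusted p = 0.384). SLC16A14 was at 1.00 and 2.07 FPKM with STING, against 2.84 and 4.47 FPKM with vector. SLC29A2, the lowest of the first experiment, was at 28.8 and 30.0 FPKM with STING, against 38.2 and 38.5 FPKM with vector, a change of -0.37 ± 0.17.

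Other members with a small p in wild-type cells were below 0. SLC46A1, the proton-coupled folate carrier, was at 1.90 and 1.54 FPKM with STING, against 3.44 and 3.81 FPKM with vector (-0.77 ± 0.22). SLC16A10 (TAT1), an aromatic amino acid carrier, was at 1.00 and 1.11 FPKM with STING, against 2.77 and 3.44 FPKM with vector (-0.995 ± 0.325). SLC7A8 (LAT2), a neutral amino acid carrier, was at 4.27 and 4.41 FPKM with STING, against 7.30 and 7.35 FPKM with vector (-0.64 ± 0.21). All 3 had a limma adjusted p of 0.384 and groups that did not overlap. The 5 members above 0 with the smallest p, SLC30A4, SLC36A2, SLC23A3, SLC12A8 and SLC14A2, lay between 0.13 and 0.23 on the log2 scale, all near the lowest listed value.

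In PERK knockout cells no member passed either. Of 156 members 0 passed in limma, where 0.00816% of all genes did. An unadjusted p under 0.05 was found for 6 members (3.85%) and for 944 of all 12254 genes. The median was -0.04, against -0.11 for all genes. Both STING libraries lay below both vector libraries for 18 members (11.5%, against 21.9% of all genes). They lay above both vector libraries for 12 (7.69%, against 5.66% of all genes). Of the 14 members that fell in the first experiment, 12 were below 0 here (8 with median-of-ratios scaling and 7 with quantile normalization), 4 had groups that did not overlap (28.6%) and the median was -0.21. Of the 837 genes of any kind that fell there, 84.7% were below 0 in knockout cells, 38.7% had groups that did not overlap and the median was -0.25, so the members' shares are near those of other such genes or under them. SLC39A4 was the lowest of them, at 24.1 and 27.2 FPKM with STING, against 50.5 and 37.5 FPKM with vector (-0.74 ± 0.27, adjusted p = 0.598). The other members below 0 with the smallest p were the carriers SLC7A8 (-0.58 ± 0.21), SLC38A7 (-0.75 ± 0.32), SLC6A8 (-0.46 ± 0.21), which imports creatine, and SLC12A8 (-0.43 ± 0.17). Those above 0 were SLC27A1 (0.59 ± 0.24), SLC27A3 (0.44 ± 0.20), SLC12A2 (0.33 ± 0.16), SLC15A1 (0.32 ± 0.12) and SLC5A3 (0.17 ± 0.09), with all 5 under 5 FPKM in every library of these cells. SLC39A3 overlapped between groups, at 52.4 and 109 FPKM with STING, against 65.9 and 118 FPKM with vector.

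The 2 knockout STING libraries differ from each other for the same carriers. Their summed member level was 1311 and 1716 FPKM, and that of the zinc carriers 235 and 423 FPKM; the vector libraries of these cells had summed zinc levels of 297 and 421 FPKM. In wild-type cells the summed zinc level was 246 and 230.1 FPKM with STING, against 359 and 394 FPKM with vector.

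**Figure D4:**
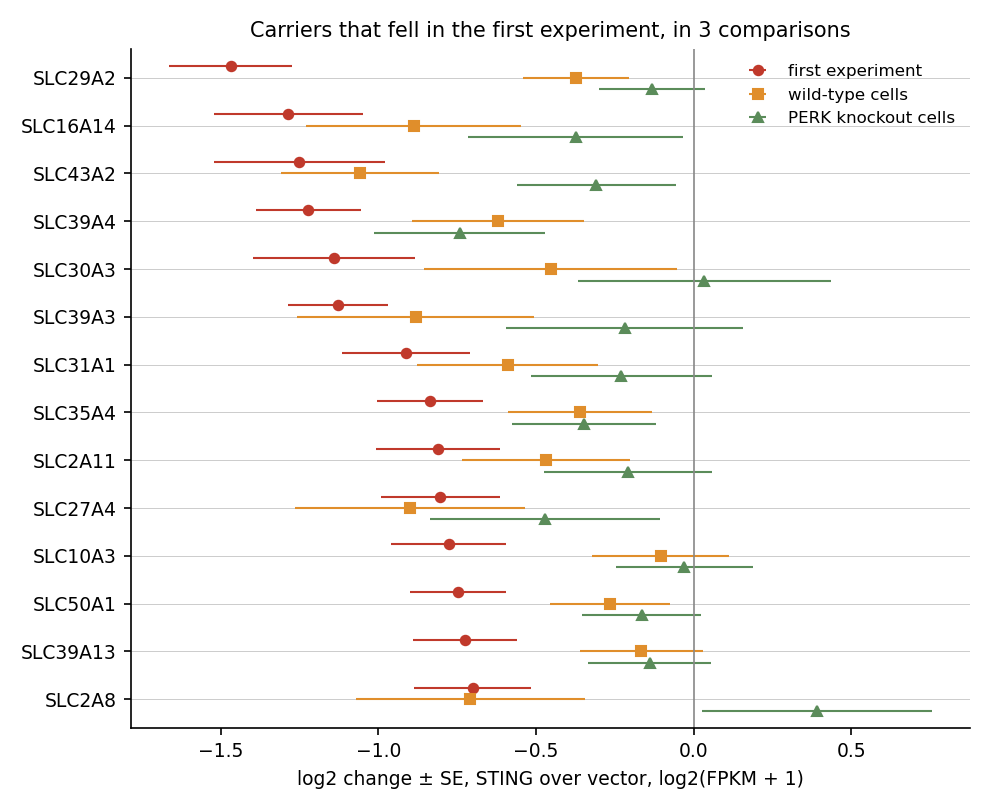
Log2 change ± SE with STING over vector, on log2(FPKM + 1), of the 14 members that fell in the first experiment (circles), with the same members in wild-type cells (squares) and PERK knockout cells (triangles). All 14 squares and 12 of 14 triangles lie left of 0 in the values as deposited, with medians of -0.53 and -0.21; with median-of-ratios scaling 9 and 8 do.

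The difference between the STING changes of the genotypes was tested as an interaction. None of 156 members passed in limma, where 0% of 12254 genes did. An unadjusted p under 0.05 was found for 6 members (3.85%) and for 474 of the 12254 genes. Of the 6 members, 5 were less negative or more positive in the knockout. SLC27A1 (FATP1), a fatty acid carrier, was at 4.56 and 3.52 FPKM in knockout cells with STING, against 2.42 and 2.22 FPKM with vector, and at 1.16 and 1.70 FPKM in wild-type cells with STING, against 3.12 and 2.11 FPKM with vector. Its interaction was 1.16 ± 0.33 (adjusted p = 0.966). SLC27A3 gave 0.79 ± 0.28, SLC10A7 gave 0.85 ± 0.31, SLC12A4 gave 0.83 ± 0.31 and, in the other direction, SLC12A8 gave -0.59 ± 0.24. SLC36A2, SLC40A1 (ferroportin), SLC4A1 and SLC41A2, next in that direction, lay between -0.39 and -0.17, near the lowest listed value. The median interaction was 0.62 over the SLC39 members, 0.19 over all members and 0.13 over all genes (0.46, 0.06 and -0.02 with median-of-ratios scaling), while no SLC39 member had an unadjusted p that came under 0.05. The smallest adjusted p of any member was 0.966, so no carrier's response to STING was shown to differ between the genotypes, nor was any shown to be alike.

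Between the genotypes, SLC5A5 and SLC7A3 were higher in knockout cells with STING. In that comparison 2 of 156 members passed in limma as higher, where 1.21% of all genes did, and 0 passed as lower, where 0.547% did. With median-of-ratios scaling 7 members passed, SLC2A3, SLC48A1 and SLC19A1 among them. In the values as deposited 25 were higher and 2 lower at an unadjusted p under 0.05, in all 17.3% of the members. In either direction 2132 of all 12254 genes had such a p, so the members' total is near that of all genes. Both knockout libraries lay above both wild-type libraries for 61 members (39.1%, against 24.8% of all genes). They lay below both wild-type libraries for 13 (8.33%, against 20.6% of all genes). The median was 0.22, against 0.02 for all genes. SLC5A5 (NIS), the sodium-iodide symporter of the thyroid, was at 7.48 and 9.12 FPKM in knockout cells, against 1.48 and 1.98 FPKM in wild-type cells (1.77 ± 0.24, adjusted p = 0.0293). SLC7A3 (CAT3), a carrier of cationic amino acids, was at 3.84 and 5.55 FPKM in knockout cells and at the lowest listed value of 1 FPKM in both wild-type libraries (1.49 ± 0.22, adjusted p = 0.0293). Without any 1 library of the experiment neither passed, except that both passed without the first knockout vector library; their changes stayed between 1.63 and 1.90 for SLC5A5 and between 1.27 and 1.71 for SLC7A3.

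With vector both genes also stood above wild type in knockout cells, without passing. SLC5A5 was at 8.92 and 13.2 FPKM in knockout cells, against 2.72 and 2.60 FPKM in wild-type cells (1.70 ± 0.24, limma adjusted p = 0.0637), and SLC7A3 at 3.97 and 3.97 FPKM, against 1.82 and 1.55 FPKM (0.89 ± 0.22, adjusted p = 0.215). With vector no member passed, where 0.049% of all genes did. An unadjusted p under 0.05 was found for 14 members (8.97%) and for 1516 of all 12254 genes. The median of the members was -0.0027 and that of all genes -0.09. KRT8, a keratin among the HEK293-expressed markers, was at 54.7 and 65.2 FPKM in knockout cells with vector, against 15.6 and 18.6 FPKM in wild-type cells with vector (1.75 ± 0.19, adjusted p = 0.0444), so the 2 cell populations differ beyond the carriers.

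**Figure D5:**
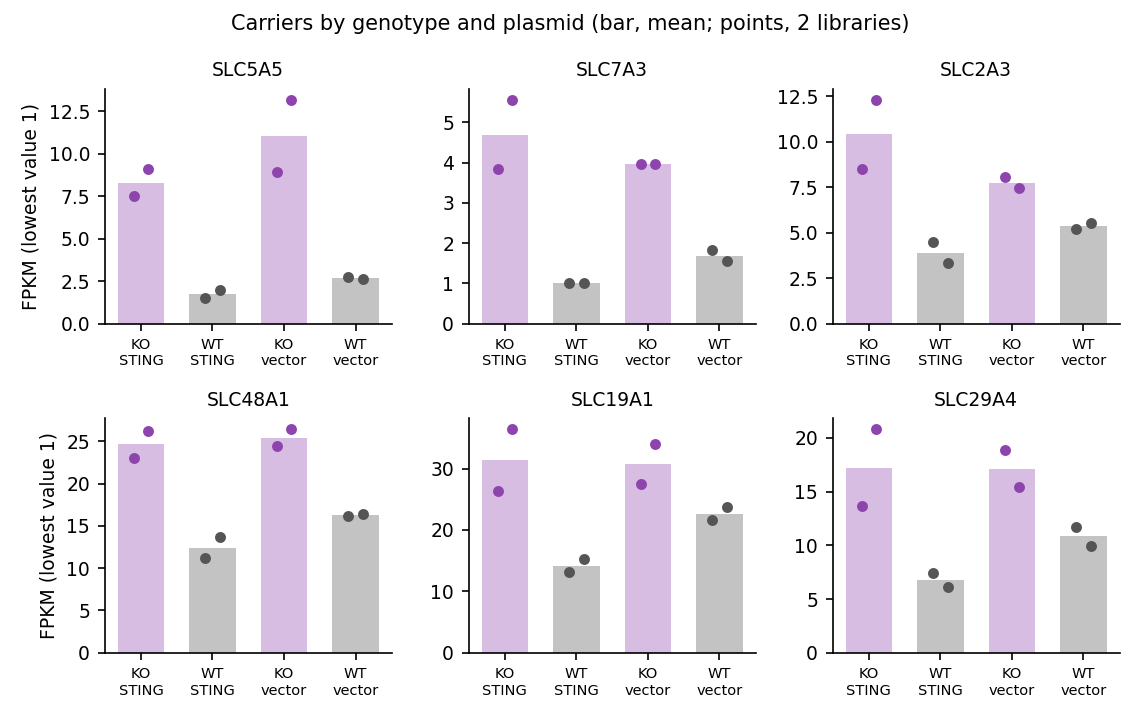
Level in FPKM of 6 members in the knockout experiment, with PERK knockout (KO) cells in purple and wild-type (WT) cells in grey, for STING and then vector; bars are means, points the 2 libraries, and 1 is the lowest listed value. SLC5A5 is at 7.48 and 9.12 FPKM in knockout cells with STING against 1.48 and 1.98 FPKM in wild-type cells, and the knockout libraries lie above the wild-type ones in all 6 panels.

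Further members higher in knockout cells with STING did not pass in the values as deposited. SLC2A3 (GLUT3), a high-affinity glucose importer, was at 8.51 and 12.3 FPKM in knockout cells, against 4.45 and 3.32 FPKM in wild-type cells (1.21 ± 0.24, limma adjusted p = 0.057). SLC48A1 was at 23.1 and 26.2 FPKM in knockout cells, against 11.2 and 13.6 FPKM in wild-type cells (0.94 ± 0.19, adjusted p = 0.0616); its locus overlaps RAPGEF3 and HDAC7. SLC19A1 was at 26.4 and 36.4 FPKM in knockout cells, against 13.1 and 15.3 FPKM in wild-type cells (1.08 ± 0.23, adjusted p = 0.0663). SLC29A4 was at 13.6 and 20.8 FPKM in knockout cells, against 7.43 and 6.09 FPKM in wild-type cells (1.21 ± 0.26, adjusted p = 0.067). SLC22A17 and SLC2A4 (GLUT4) were among those with the smallest p with vector, at 1.34 ± 0.35 and 0.62 ± 0.19. With vector, SLC38A6 (-0.74 ± 0.20), SLC38A9 (-0.63 ± 0.25) and SLC10A7 (-0.62 ± 0.22) were among those with the smallest p below 0. In the other direction, SLC38A6 was at 6.19 and 4.95 FPKM in knockout cells, against 10.6 and 9.89 FPKM in wild-type cells, with STING (-0.78 ± 0.20, adjusted p = 0.104). SLC38A7, a lysosomal exporter of glutamine and asparagine, was at 4.23 and 5.16 FPKM in knockout cells, against 10.5 and 10.8 FPKM in wild-type cells (-1.03 ± 0.32, adjusted p = 0.154). SLC13A3, SLC38A9 and SLC6A8 were next with STING, at -0.59 ± 0.27, -0.51 ± 0.25 and -0.48 ± 0.21. Beside the carriers, MT2A was higher by 1.04 in knockout than in wild-type cells, both with STING. FXYD6, a regulator of the sodium pump, was higher by 1.37 in that comparison (limma adjusted p = 0.0439 for both). With vector MT2A was at 748 and 617 FPKM in knockout cells, against 377 and 311 FPKM in wild-type cells. FXYD6 with vector was at 18.6 and 27.5 FPKM in knockout cells, against 15.18 and 15.20 FPKM in wild-type cells.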

How the data were processed

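Polysome-associated RNA of HEK293 cells was turned into cDNA with Smart-seq2, made into libraries by transposition and sequenced in pairs, per the labels' protocols; the kit does not mark strand, so overlapping genes cannot be told apart. The submitters' processing notes name TopHat2 2.1.1, Cufflinks 2.2.1 and hg19; which annotation was counted is not stated there. The authors deposited FPKM values per gene and library in 2 tables, 1 per experiment. The second table's header names no unit, its values were read as FPKM, and no value in it is under 1, so its changes of low genes are understated. Its protocol names ERCC spike-ins, which were not used here. Read depth is unknown from FPKM; the spacing of low values put the 4 libraries of the first experiment at relative depths of 0.886 to 1. Replicate libraries correlated across genes at r = 0.948 to 0.991 on log2(value + 1), and no replicate pair shared an identical value above 1.

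From these values, limma 3.58.1 in R 4.3.3 was run across each whole table on log2(value + 1), with intensity trend and robust estimation, 1 mean per group, 6 comparisons, and Benjamini-Hochberg adjustment at 0.05 over all genes whose mean reached 1 and whose values varied. Fold changes are on the log2(value + 1) scale, which understates changes of low genes. The fit was tested on simulated data. Members were sorted into 15 substrate classes by family, and 13 further lists were read from the same fits. Members, classes and lists were chosen with earlier results of these data known. Named by rule were, per comparison and direction, up to 10 passing members with the largest change (or the 5 with the smallest p where fewer than 5 passed) and, per class of at least 5 tested, the most abundant and the most changed member; other carriers and list genes were named after their values were seen. List genes not found under their current symbol were looked up by RefSeq synonym. A few genes that the rule or the lists name are not reported here. Promoters and overlapping genes came from RefSeq tables on GRCh38.p14, used for names and sequence only. Alternatives were pseudocounts of 0.1 and 5, a mean of at least 5 or no filter, median-of-ratios scaling, quantile normalization, no trend or robust estimation, replicate number as a block, and leaving out each library.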

Additional observations from a re-analysis of the deposited data

Results flagged for a closer look

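For 9 members the STING libraries lay above both vector libraries in the first experiment and below both in wild-type cells of the knockout experiment. Of all genes, 24.2% lay above in the first experiment and 52.3% lay below in wild-type cells. The share of all genes that did both was not counted. The median change of all genes was -0.05 in the first experiment and -0.27 in wild-type cells (0.0018 and 0.05 with median-of-ratios scaling). The differences that follow include that shift of the whole table. The change in the first experiment minus that in wild-type cells, on the log2(value + 1) scale, was 1.26 for SLC27A3, 1.23 for SLC39A14, 1.14 for SLC38A9, 0.964 for SLC9A3R2, 0.946 for SLC37A3, 0.872 for SLC12A4, 0.776 for SLC36A4, 0.714 for SLC2A1 and 0.654 for SLC26A2. The 2 experiments were processed as separate tables, and these differences were not tested. None of the 9 passed in either comparison alone.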

How the results depend on the processing

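In the first experiment the 14 members called lower became 4 with no filter on the mean, 0 with no intensity trend or robust estimation, and 0 to 9 when 1 library was left out; where a group is left with 1 library, that library is assumed to vary like the others. No member was called higher under any alternative. For the knockout against wild type with vector, the count of 0 became 1 with a mean of at least 5, with median-of-ratios scaling and with quantile normalization. With STING, the count of 2 became 6 with a mean of at least 5, 7 with median-of-ratios scaling, 6 with quantile normalization, 4 with no trend or robust estimation and 0 to 2 when 1 library was left out. The STING changes in wild-type and in knockout cells and their interaction gave 0 calls throughout. Of the named members, 3 with changes near 0 in the first experiment reversed. SLC4A2 gave 0.0089 with median-of-ratios scaling, 0.027 with quantile normalization and -0.369 to 0.274 without 1 library; without 1 library SLC7A6 gave -0.300 to 0.083 and SLC41A3 gave -0.069 to 0.075. The causes were not tested beyond what fewer libraries and genes explain by construction.

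The replicate numbers match across groups, but same-numbered libraries deviated together with correlations of 0.074 in the first experiment and 0.042 to 0.528 in the knockout experiment, so the numbers were not taken to pair libraries. With the replicate block, 18 members were lower in the first experiment, 1 passed in knockout against wild type with vector and 13 with STING. The 57 members with a mean under 1 FPKM in the first experiment were left out by the filter, and whether read depth limits them was not tested.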
